A study of Drosophila melanogaster with 3 samples.

Results

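Deep intronic summits are the positions where the tagged protein was found inside introns, away from the starts of protein-coding genes. They were taken from the optimal peaks, the regions that the authors give as passing the irreproducible discovery rate, on genome build dm6. A summit was a member where it lay inside a protein-coding gene, overlapped no annotated exon of any gene and was more than 5000 bp from the nearest protein-coding transcription start site (TSS). Of 5202 optimal summits, 446 were members, and this choice used positions only, no measured strength. The study is a chromatin immunoprecipitation with sequencing (ChIP-seq) of the protein encoded by CG12155, fused at its C terminus to GFP, in whole Drosophila melanogaster embryos. It holds 1 group of 3 biological replicates, all of the transgenic strain CG12155-GFP, mixed in sex and aged 0 to 24 hours, precipitated with an antibody against GFP. The tagged copy comes from an insertion, and the labels name no promoter, no tissue and no untagged comparison, so the peaks average over all cells of the embryo and hold no comparison between conditions. Library depth is unknown, as the peak lists carry no counts of reads.

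Most fly genes are short and are transcribed from starts that lie close to their neighbours. The long genes are often developmental regulators, receptors and adhesion molecules, and their introns are a common home of enhancers, the distal elements that factors bind to set when and where a gene is transcribed. A ChIP-seq summit far from any annotated start is therefore usually read by its host gene, although an intronic element need not act on the gene that contains it.

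The strongest members show what these positions look like in the genome. The 100 bases centred on the summit are given on the forward strand of dm6 for the 6 strongest members that may be shown and for the strongest one in Hr4, one of the 10 hosts with the most members. Capitals mark GAGAG, the letters read by GAGA factor, and any of the 5 leading 6-mers at members that are described with the other sequence results, on either strand.
simj (chr3L:10683214-10683313): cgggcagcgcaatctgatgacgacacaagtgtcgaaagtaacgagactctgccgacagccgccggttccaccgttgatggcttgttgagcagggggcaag
CG32486 (chr3L:3060737-3060836): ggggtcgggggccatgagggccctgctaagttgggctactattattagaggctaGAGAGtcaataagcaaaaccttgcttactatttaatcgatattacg
Gug (chr3L:8458267-8458366): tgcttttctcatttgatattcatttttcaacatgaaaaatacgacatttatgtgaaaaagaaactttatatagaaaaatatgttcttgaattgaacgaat
skd (chr3L:21009021-21009120): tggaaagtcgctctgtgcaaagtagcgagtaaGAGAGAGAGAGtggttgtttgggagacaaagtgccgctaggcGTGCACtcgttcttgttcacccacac
osa (chr3R:17700548-17700647): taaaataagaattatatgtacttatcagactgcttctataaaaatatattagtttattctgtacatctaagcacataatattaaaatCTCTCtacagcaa
tara (chr3R:16236953-16237052): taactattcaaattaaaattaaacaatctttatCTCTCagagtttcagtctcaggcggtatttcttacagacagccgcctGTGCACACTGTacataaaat
Hr4 (chrX:1951861-1951960): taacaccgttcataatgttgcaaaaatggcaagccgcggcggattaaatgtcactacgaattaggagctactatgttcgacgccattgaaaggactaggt
These 7 windows did not share one motif. The windows of CG32486, skd, osa and tara held GAGAG, those of skd and tara also held a leading 6-mer, and those of simj, Gug and Hr4 held none of these letters. The simj summit was the strongest member, at rank 55 of all optimal peaks.

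A second set shows an arrangement found at 8 members (1.79%), and also at other classes of optimal peak. In these 250 bases the 6-mer TCAGTG stands right of the summit and its reverse complement CACTGA left of it, both in capitals, so that the pair points away from the summit. They are the 4 strongest members that carried the pair between 25 and 125 bp from the summit on both sides and that may be shown, and the choice was made after the 6-mer counts were seen.
Socs36E (chr2L:18145394-18145643): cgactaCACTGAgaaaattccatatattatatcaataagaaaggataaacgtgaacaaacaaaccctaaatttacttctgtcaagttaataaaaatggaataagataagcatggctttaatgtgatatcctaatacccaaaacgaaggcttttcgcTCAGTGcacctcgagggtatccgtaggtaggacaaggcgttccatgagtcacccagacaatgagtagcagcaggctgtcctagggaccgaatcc
Snoo (chr2L:7916424-7916673): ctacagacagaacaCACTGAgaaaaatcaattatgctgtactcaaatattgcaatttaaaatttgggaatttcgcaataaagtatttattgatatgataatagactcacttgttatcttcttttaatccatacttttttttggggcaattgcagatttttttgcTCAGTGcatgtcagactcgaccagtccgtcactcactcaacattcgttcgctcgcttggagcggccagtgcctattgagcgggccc
kirre (chrX:3025589-3025838): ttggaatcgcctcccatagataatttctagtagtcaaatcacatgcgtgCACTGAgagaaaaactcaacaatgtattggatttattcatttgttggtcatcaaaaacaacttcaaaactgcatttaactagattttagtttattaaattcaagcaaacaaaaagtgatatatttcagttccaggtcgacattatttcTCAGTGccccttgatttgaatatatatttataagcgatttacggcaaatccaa
Snoo (chr2L:7964648-7964897): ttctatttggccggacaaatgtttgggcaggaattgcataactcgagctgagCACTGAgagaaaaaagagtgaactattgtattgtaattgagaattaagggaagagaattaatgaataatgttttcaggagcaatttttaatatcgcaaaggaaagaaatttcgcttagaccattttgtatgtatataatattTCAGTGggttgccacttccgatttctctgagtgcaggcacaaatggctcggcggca
Between the capitals of all 4 lies a stretch rich in A and T. Both Snoo summits are in this set. Snoo encodes the fly Ski and Sno family regulator, Socs36E a negative regulator of JAK-STAT signalling, and kirre an immunoglobulin adhesion protein of muscle founder cells.

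Members were fewer than their territory. Sequence that meets the rule covers 27.3 Mb, or 20.4% of the 6 chromosome arms, and it held 8.57% of the optimal summits (95% Wilson interval 7.84 to 9.37%, which like all intervals here covers counting error only). That is 16.3 members per Mb of deep intronic sequence, against 44.6 optimal summits per Mb elsewhere. Taken from each replicate alone, the deep intronic share of the 5202 strongest regions was 7.98% in replicate 1, 9.36% in replicate 2 and 8.82% in replicate 3, which gives 8.72% ± 0.698 (SD, n = 3). In the weaker regions below these, the share was 17.5%, 19.0% and 17.0% in replicates 1, 2 and 3, or 17.9% ± 1.06 (SD, n = 3). Every replicate therefore placed a larger part of its weak regions than of its strong regions in deep introns.

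**Figure D1:**
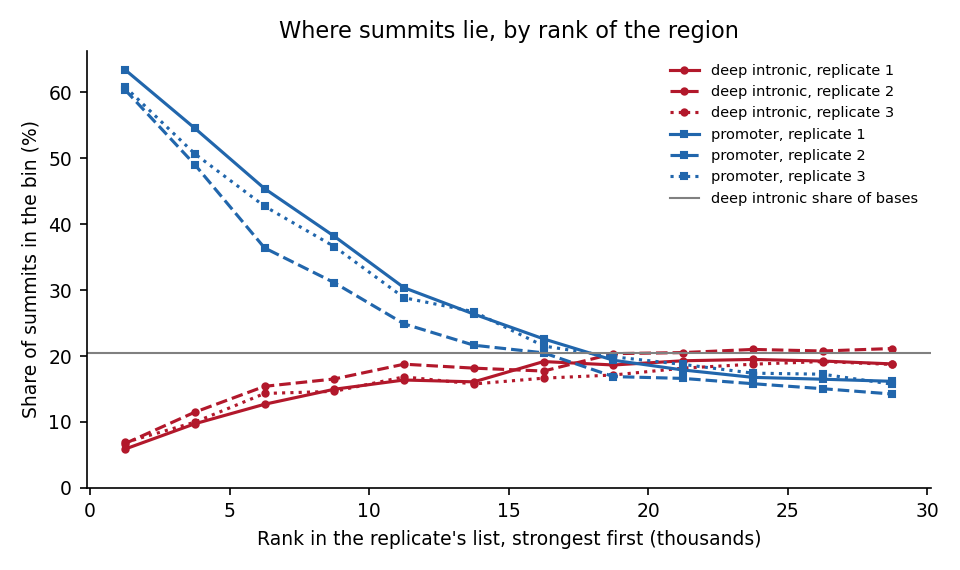
Share of summits that are deep intronic (red) or within 500 bp of a protein-coding TSS (blue) in bins of 2500 regions, against rank in each replicate's relaxed list, with 1 line per replicate; the grey line is the deep intronic share of bases. In the strongest bin the deep intronic share was 5.88 to 6.88% and the promoter share 60.4 to 63.4%, and in the last bin the deep intronic share was 18.7 to 21.1%, close to the 20.4% of bases.

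Members occurred on every large arm. The X held 109 of them, 3R held 105, 2L held 89, 3L held 84 and 2R held 59. Per Mb of deep intronic sequence this was 22.8 on X, 21.3 on 2L, 15.6 on 3L, 12.9 on 2R and 12.8 on 3R. The 10 longest genes without a member all lie on 2R, 3L and 3R, and their sequence counts in these densities. On 3R, Myo81F and Pzl hold 1790.4 and 626.8 kb of the 8.22 Mb. Chromosome 4 had 0 members among 16 optimal summits, which allows a share of up to 18.8%, so an absence there could not be shown at this number of peaks.

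Density was highest close to the threshold distance and lower beyond it. Between 5 and 10 kb there were 261 members (26.6 per Mb), between 10 and 20 kb 116 (14.5 per Mb), between 20 and 40 kb 60 (14.02 per Mb), and beyond 40 kb 9 (1.73 per Mb). The bin beyond 40 kb covers 5.20 Mb, and the 10 longest genes without a member hold 4.36 Mb of deep intronic sequence. How much of that lies in this bin was not counted. The median distance was 8865 bp, and the farthest member lay 85952 bp away, in hth. In 330 cases the member was downstream of its nearest TSS and in 116 upstream of it, and for 314 members that nearest TSS belonged to a host gene. The rest were closer to a neighbour's start. Replicate support was 66.7%, 63.8%, 61.7% and 44.4% in the 4 distance bins, counting members supported by all 3 replicates. Of the 444 members inside an intron of the host's longest transcript, 32.7% lay in the first intron and 37.2% in the second, beside 20.1% and 27.7% of all deep intronic bases. The median intron holding a member was 20.4 kb long, and the median distance to any exon was 4069 bp.

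The threshold of 5000 bp passed through a continuous range. The 3 members nearest to it were at 5001 bp in Liprin-gamma (rank 4848, supported by 1 replicate), 5010 bp in Ac13E (rank 1898, all 3 replicates) and 5030 bp in Mnt (rank 4436, 2 replicates). The 3 intronic summits just outside were at 4996 bp in Pdk (rank 3328), 4991 bp in Gug (rank 1566) and 4990 bp in tara (rank 2050), each supported by all 3 replicates. Gug and tara also hold members. Of all members, 12 lay within 500 bp of the TSS of a non-coding gene, and 10 of these were supported by all 3 replicates.

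Members were weaker than promoter peaks, the 2932 optimal summits within 500 bp of a protein-coding TSS. Signal is the authors' own value per region, on a scale that is not given and differs between lists, so it was used as a rank within a list. The median rank among optimal peaks was 3223.5 for members and 2362.5 for promoter peaks, where rank 1 is the strongest. In replicate 1 the median rank was 3385.5 for members and 2149.5 for promoter peaks, in replicate 2 it was 3041.5 and 2198.5, and in replicate 3 it was 3095.5 and 2276. Members ranked weaker in 3 of 3 replicates, by 966 ± 234 ranks (SD of the difference, n = 3; exact sign-flip permutation test, two-sided p = 0.25, the smallest that 3 replicates allow). Only 13.0% of members, against 29.2% of promoter peaks, fell in the strongest quartile of the optimal list, and 32.3% against 22.1% fell in the weakest. Among the 100 strongest optimal peaks 3 were members, and among the 1000 strongest 40 were.

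The 3 strongest members ranked near the top in every replicate. The simj summit (chr3L:10682936-10683594) ranked 42, 73 and 77 in replicates 1, 2 and 3, where simj encodes the p66 subunit of the NuRD chromatin remodelling complex. The bin3 summit (chr2R:6235902-6236388) ranked 47, 136 and 87, and bin3 encodes an RNA methyltransferase that caps 7SK RNA. The summit in CG32486 (chr3L:3060618-3060971) ranked 141, 78 and 73. All 3 are at least 5708 bp from a protein-coding TSS.

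The members next in strength included several in genes of known roles. Gug, an Atrophin co-repressor, ranked 197, 176 and 181 in replicates 1, 2 and 3, and the summit shared by Hr3, CG12912 and CG46321 ranked 239, 187 and 148. Hr3 is a nuclear receptor of the ecdysone cascade, and the overlap of 3 genes leaves its host undefined. The summits of skd, the Mediator subunit Med13, and osa, a subunit of the BAP remodelling complex, ranked 130, 262 and 295, and 233, 206 and 218. That in osa is 143 bp from the start of a non-coding gene, lncRNA:CR46036. In tara, a trithorax group regulator, the ranks were 265, 298 and 303.

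Mi-2, the ATPase of the NuRD complex, held 3 members, all inside an overlap with Su(Tpl), which encodes the elongation factor ELL, and 2 of them were among the 15 strongest. The strongest ranked 371, 251 and 254 in replicates 1, 2 and 3. The second ranked 153, 643 and 327 and is 86 bp from the start of lncRNA:CR32218. The third, at pooled rank 908, shared its replicate 1 region with the second, so both have rank 153 there. The remaining hosts of the 15 strongest members were Tis11 (pooled rank 365), an mRNA decay factor, chm (377), a histone acetyltransferase, JIL-1 (379), a histone H3 kinase, Hr4 (401), a nuclear receptor, and gpp (420), the Dot1 histone methyltransferase. All 15 were supported by all 3 replicates.

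Replicate support was high, and lower for members than for promoter peaks. High support follows in part from the choice of list, since the optimal peaks are those given as reproducible across these replicates. Support means an overlap of 1 bp or more with one of the 5202 strongest regions of that replicate. It was found for 361 members in replicate 1, 386 in replicate 2 and 374 in replicate 3, or 80.9%, 86.5% and 83.9% of members, against 92.4%, 88.0% and 88.6% of promoter peaks. Over replicates this was 83.8% ± 2.80 for members and 89.7% ± 2.36 for promoter peaks (SD, n = 3). The difference was -11.4, -1.45 and -4.79 points in replicates 1, 2 and 3, lower for members in 3 of 3, with a mean of -5.88 ± 5.08 points (exact sign-flip permutation test, two-sided p = 0.25, the smallest possible). Against all other optimal peaks the mean difference was -4.89 ± 3.87 points (exact permutation p = 0.25), and replicate 1 again gave the largest gap, -8.99 points. Against intronic summits 501 to 5000 bp from a start it was -4.15 ± 1.15 points, lower for members in 3 of 3 replicates (exact permutation p = 0.25).

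All 3 replicates supported 289 members, 64.8% (Wilson interval 60.3 to 69.1%), beside 76.0% of promoter peaks and 73.2% of all optimal peaks. For 101 members 2 replicates gave support, for 52 it was 1 replicate, and for 4 it was 0. The commonest gap was replicate 1 alone, missing for 45 members (10.1%), against 129 promoter peaks (4.4%). The 4 members without support lay in cv-c, tai, Pura and Ten-a, at pooled ranks 4935 to 5094. Their ranks in the replicates were 5207 to 6660, just below the 5202 regions that count, and every member overlapped a region somewhere in each replicate's relaxed list.

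Among the stronger peaks nearly all of both classes had support, so a gap could hardly show there. In the strongest quartile of optimal peaks all 3 replicates supported 58 of 58 members, against 99.4% of 857 promoter peaks. In the second quartile the shares were 98.2% of 112 members and 98.6% of promoter peaks, and in the third 78.8% of 132 members and 72.5% of promoter peaks. In the weakest quartile they were 11.8% of 144 members (7.5 to 18.1%) and 23.1% of promoter peaks (20.0 to 26.5%). Within the strongest 50% of optimal peaks the mean difference per replicate between members and promoter peaks was -0.0781 points (exact permutation p = 1). When support was counted over the 2601 strongest regions of each replicate, the mean difference over all peaks was -17.3 points (exact permutation p = 0.25).

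**Figure D2:**
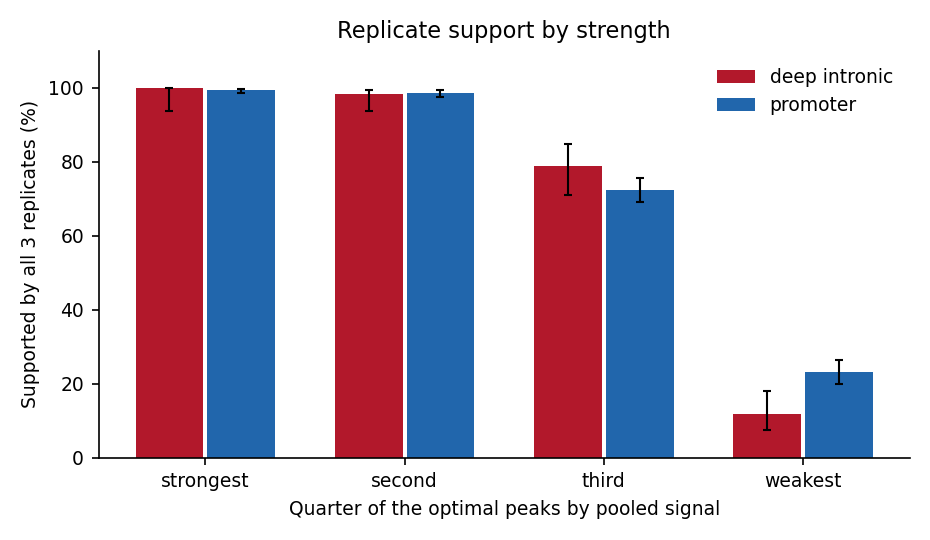
Percentage of deep intronic (red, left) and promoter (blue, right) peaks supported by all 3 replicates, by quartile of the optimal list ordered by pooled signal; error bars are 95% Wilson intervals. Members and promoter peaks have similar bars in the 2 stronger quartiles. The bar of members is higher in the third quartile, 78.8% against 72.5%, and lower in the weakest, 11.8% against 23.1%.

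Where a replicate supported a peak, its summit fell close by. The median distance between the pooled and the replicate summit was 13, 16 and 13 bp for members in replicates 1, 2 and 3, and 12, 15 and 14 bp for promoter peaks. The mean difference was 0.333 ± 1.15 bp (exact permutation p = 1), within the spread between replicates. Signal correlated less closely between replicates at members, with Spearman correlations of signal between replicate pairs of 0.664, 0.65 and 0.71 across 446 members, against 0.807, 0.799 and 0.848 across 2932 promoter peaks. These are correlations across peaks of the same libraries, and the spread of signal in the 2 classes was not matched. The median width was 430 bp for both classes, which is the fixed width that most weak peaks share.

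The 446 members lay in 273 host genes. These were 14.9% of the 1830 protein-coding genes that hold any deep intronic sequence, and 432 members were in 1 gene and 14 in more than 1. Hosts were long, with a median length of 41.7 kb, against 19.4 kb for the 1557 genes with deep intronic sequence but no member and 2.17 kb for all protein-coding genes. Since a gene can only hold a member where it has such sequence, part of this follows from the rule. Their median deep intronic sequence was 19.6 kb, against 3.93 kb in genes without a member. Ordered by deep intronic length, the quartiles of the 1830 genes had hosts at 0.655%, 8.32%, 17.9% and 32.8%. Per 100 kb of that sequence there were 1.28 summits in the longest quartile, against 2.83 in the third, 3.36 in the second and 1.57 in the shortest, which held 3 summits. The Spearman correlation of members with deep intronic length was 0.353 across the 1830 genes.

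Genes with much deep intronic sequence were often without a member. Among the 100 genes with the most deep intronic sequence, 37 held a member. The 10 longest of the others, led by Myo81F with 1790.4 kb, together hold 16.0% of all deep intronic bases and 0 members, and none of them had a promoter peak. How well reads map to this sequence was not tested.

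Several members in one gene were common. Of the 273 hosts 169 held 1 member, 57 held 2, 24 held 3 and 23 held 4 or more. Hosts with 2 or more make 5.68% of the 1830 genes, and 281 members (63.0%) lay in such a host. Gaps between members were counted per host, so those in overlapping hosts, such as Antp and CG46458, count for each gene. Members of a shared host were a median of 4.77 kb apart over 189 such gaps, of which 32 were under 1 kb and the longest was 114.4 kb. Some of these are close summits that count as separate members: when only the strongest of summits within 250 bp was kept, 98 hosts had 2 or more. The closest members of a shared host were 0.2 kb apart, in N and in lilli. Within tara the smallest gap was 0.245 kb, and within Antp it was 0.205 kb. In hosts with 2 or more 65.8% of members were supported by all 3 replicates, against 63.0% in hosts with 1 member.

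The hosts with the most members differed in how tightly these were placed. In tara 7 members spanned 21.6 kb of a gene of 34.7 kb, at pooled ranks of 286 to 3564, and 6 of them were supported by all 3 replicates. The transcriptional co-repressor gene sbb also held 7, within 17.8 kb of its 79.1 kb, and all 7 had support from all 3 replicates, at ranks of 474 to 3407. Hr4 held 6 members over 36.6 kb, with 4 supported by all 3. The density in sbb and tara was 19.7 and 43.4 members per 100 kb, against 1.64 over all genes with deep intronic sequence. Both were named for their number of members, so a high density follows in part from that choice. In tara the members at pooled ranks 1803 and 2157 are 0.245 kb apart and match the same region in replicate 2.

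Other hosts had members spread over longer distances. The homeodomain gene hth held 6 over 107.8 kb, of which 2 had support from all 3 replicates, and kirre held 6 over 90.3 kb, all within the 3' part of a gene of 394.1 kb. The ETS factor gene pnt held 5 over 34.9 kb. Antp, a Hox gene, and CG46458, which lies inside it, shared the same 5, so these count for both. gpp held 4 over 13.0 kb, and fz, a Wnt receptor gene, held 4 over 41.5 kb, all 4 supported by all 3 replicates. Among hosts with 4 members named after their values were seen, those of B4 lay within 2.84 kb and those of CG42238 were spread over 64.5 kb. Of all members, 62 (13.9%) had another optimal summit within 1000 bp, against 21.3% of promoter peaks, and the median distance to the next optimal summit was 5767 bp for members and 3647 bp for promoter peaks.

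**Figure D3:**
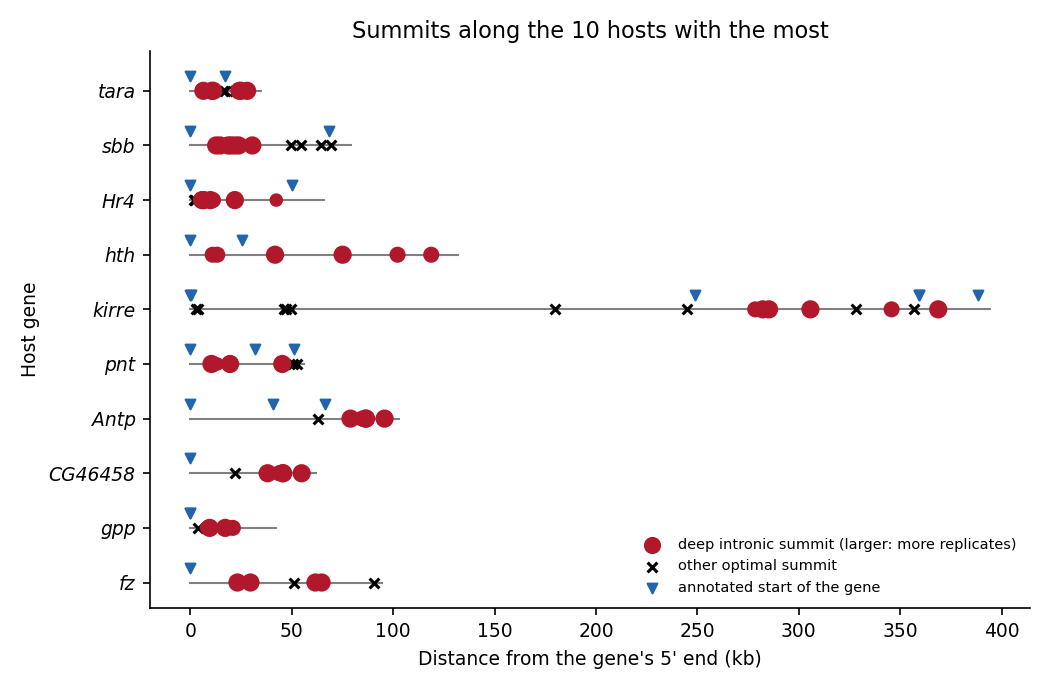
Position of deep intronic summits (red circles, larger with more supporting replicates), other optimal summits (black crosses) and annotated starts (blue triangles) along the 10 hosts with the most members, in kb from the gene's 5' end; grey lines are the gene's length. The 7 members of tara and the 7 of sbb lie close together, those of hth are spread over 107.8 kb, and Antp and CG46458 share 5.

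Hosts had a peak at their own promoter more often than other genes with deep intronic sequence, in every replicate. An optimal summit lay within 500 bp of a TSS of 119 hosts, 43.6% (Wilson interval 37.8 to 49.5%), against 425 or 27.3% (25.1 to 29.6%) of the 1557 genes with deep intronic sequence and no member, and 29.7% of all 1830. With the strongest regions of each replicate, the share was 47.3%, 42.1% and 45.4% of hosts in replicates 1, 2 and 3, against 29.5%, 27.6% and 27.2% of the other genes. The difference of 16.8 ± 2.04 points was positive in 3 of 3 replicates (exact sign-flip permutation test, two-sided p = 0.25, the smallest possible). In the quartile of genes with the most deep intronic sequence, 42.7% of hosts and 17.6% of other genes had a promoter peak. Hosts had a median of 2 TSS positions and the other genes 1, which gives hosts more chances of such a peak, and its part in the difference was not tested. Of the 10 hosts with the most members, tara, sbb and pnt had a promoter peak and the other 7 did not.

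The hosts were then described by 8 lists of genes known to be long or regulated in development, beside the 14.9% of hosts and 1.64 members per 100 kb over all genes with deep intronic sequence. Median deep intronic sequence was 5.53 kb over all these genes. In the lists it was longer, from 8.45 kb for G protein coupled receptors to 23.6 kb for adhesion and guidance genes. Shares of hosts are therefore not matched for length. Among 17 ecdysone and nuclear receptor genes with such sequence, 8 (47.1%) were hosts, with 25 members or 6.45 per 100 kb. Their median deep intronic sequence was 19.8 kb, and the quartile of genes with the most such sequence had hosts at 32.8%. These genes carry the response to the steroid hormone that times moulting and morphogenesis. Hr3 held 2 members, Hr4 held 6 and EcR, the hormone's receptor, held 2 with a best pooled rank of 981, which lie 203 bp apart and match the same region in each replicate. Of the 8 hosts 7 held at least 2, among them ftz-f1, Eip74EF and Eip75B with 4 each.

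Signalling ligands, receptors and their regulators had the next highest share, 20 hosts of 48 genes (41.7%) with 34 members, or 5.52 per 100 kb. Dad, an inhibitory Smad of the Dpp pathway, held 2 members with a best rank of 492. N, the Notch receptor gene, held 2 with a best rank of 888, which lie 200 bp apart and match the same region in each replicate. cv-2, a BMP-binding protein gene, held 3, all with support from all 3 replicates and a best rank of 931. Genes of cyclic nucleotide, kinase and phosphatase signalling had 14 hosts of 42 (33.3%, 2.64 per 100 kb). Raf, a kinase of the MAPK cascade, held 4 members within 3.4 kb at a best rank of 1017, RapGAP1, a GTPase activator, held 2 at 1253, and wdb, a phosphatase subunit gene, held 1 at 1345.

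Developmental transcription factors had 18 hosts of 86 (20.9%, 2.68 per 100 kb), led by pnt at rank 976, Antp at 1060 and hth at 1187. Cell adhesion and axon guidance genes, which have a median of 23.6 kb of deep intronic sequence, had 22 hosts of 98 (22.4%) but 1.33 members per 100 kb, below the value over all genes. They were led by dlp, a glypican gene, with 3 members at a best rank of 830, NetA, a guidance cue, with 3 at 1310, and Fas3, an adhesion molecule, with 2 at 1446. RNA-binding protein genes, with a median of 21.6 kb of such sequence, had 6 hosts of 26 (23.1%, 0.645 per 100 kb). They were led by brat at rank 1674, how at 1765 and spen at 2306.

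Ion channel genes and G protein coupled receptor genes had the lowest shares of hosts among the 8 lists. Among 43 ion channel genes with a median of 10.8 kb of deep intronic sequence, 1 (2.33%) was a host, Ca-alpha1T, with 2 members at a best rank of 3928, or 0.25 per 100 kb. Among 49 G protein coupled receptor genes 2 (4.08%) were hosts, and both encode Wnt receptors, fz with 4 members and fz2 with 2, neither of which had support from all 3 replicates.

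Members sat in a narrow dip of GC content. In 200 bp at the summit GC averaged 35.3% at members and 41.9% in their flanks, whose windows are centred 500 bp away, and deep intronic sequence as a whole has 40.3%. The summit was lower than its flanks at 364 of 446 members (81.6%). With summits of each replicate's own strongest regions the difference was -6.16 ± 0.258 points (SD, n = 3), and promoter peaks had a difference of -8.69 points. A dip of this depth was not particular to deep introns. From the optimal list, the difference was -6.66 points at members and -6.66 at intronic summits nearer to a start but outside promoters. At intergenic summits it was -5.90 points. The dip of members was narrower than that of promoter peaks, and GC to either side of it was raised. In 50 bp windows GC was 32.7% at the member summit, 45.3% at 250 bp left and 44.6% at 250 bp right of it, and 40.0% at 1000 bp right. The dip was deeper at weaker members, -4.12 points in the strongest quartile of the optimal list and -8.00 in the weakest.

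**Figure D4:**
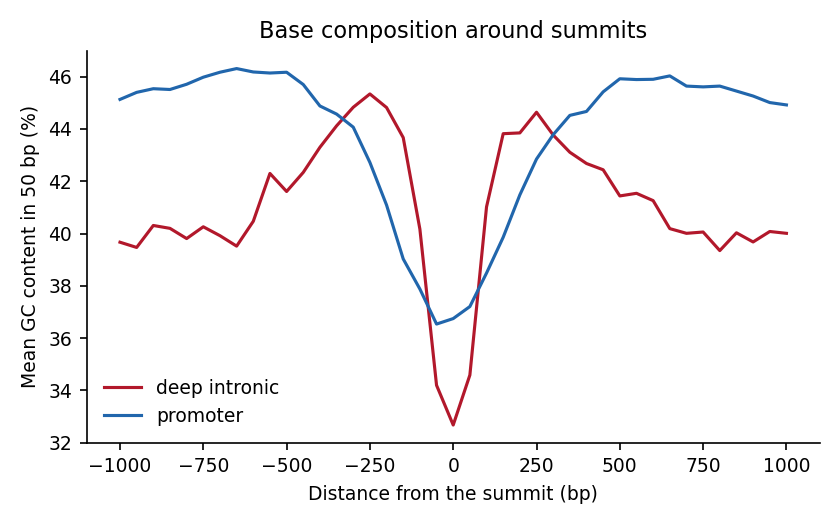
Mean GC content in 50 bp windows against distance from the summit for 446 deep intronic (red) and 2932 promoter (blue) summits. Both dip at the summit, and the deep intronic curve has shoulders of 45.3% and 44.6% at 250 bp to either side before it levels near 40%.

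The letters of the promoter factors DREF and M1BP were rare at members. TATCGATA, read by DREF, was in the 200 bp at 1 member (0.224%), against 8.7% of promoter peaks and 5.21% of all optimal peaks. GGTCACAC, read by M1BP, was at 3 members (0.673%), against 5.76% of promoter peaks, and CGATA, part of the BEAF-32 site, was at 20.2% of members and 19.8% of their flanks, against 43.3% of promoter peaks. Intronic summits nearer to a start but outside promoters also had low shares, 0.473% for TATCGATA, 0.284% for GGTCACAC and 20.5% for CGATA. The low shares were therefore not particular to deep introns. All motifs were searched on both strands, and CGATA lies within TATCGATA.

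Some motifs were more common at the summit than in the flanks. TATAAA, the letters of the TATA box, was at 37.0% of members and 20.3% of their flanks, beside 33.97% of promoter peaks, AAAAAA at 51.8% and 38.2%, and TATATA at 21.5% and 12.0%. Others were less common at the summit than in the flanks, with GCCAT, the core of the Pho site, at 24.0% and 37.1%, CACACA at 16.4% and 22.1%, and the E-boxes CACGTG at 0.448% and 2.8% and CAGCTG at 3.81% and 9.42%. The Grainyhead letters AACCGG were at 3.14% and 4.82%, and the AP-1 letters TGACTCA at 1.35% and 2.58%. Shares at summit and flanks were close for GAGAG (26.7% and 27.6%), the Zelda letters CAGGTA (3.36% and 3.59%), GATAAG (8.97% and 8.18%), TAATTA (15.7% and 14.5%) and TGCATA (17.7% and 14.6%). Over all optimal peaks the motifs that differed did so in the same direction. There AAAAAA was at 46.1% of summits and 30.7% of flanks, TATATA at 18.2% and 10.65%, and GCCAT at 26.0% and 32.9%. CACACA was at 14.8% and 21.3%, CACGTG at 1.96% and 2.845%, CAGCTG at 9.23% and 9.98%, and AACCGG at 3.38% and 5.41%. Summit and flank windows also differ in GC content, and its part in these shares was not tested.

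Of all 6-mers at 10% or more of members, the 5 with the largest ratio of summit to flanks all held GTG on one strand. The palindrome GTGCAC was found at 13.9% of members and 3.59% of their flanks, a ratio of 3.88, and at 5.7% of promoter peaks. For CAGTGC the shares were 22.4% of members and 6.95% of flanks. For ACAGTG they were 21.8% of members and 6.5% of flanks. For AGTGTA they were 20.6% of members and 6.39% of flanks. For ACACTG they were 19.5% of members and 6.39% of flanks. At promoter peaks the shares were 13.7% for CAGTGC, 16.6% for ACAGTG, 11.1% for AGTGTA and 20.5% for ACACTG. Over all optimal peaks they were 7.69% for GTGCAC, 15.9% for CAGTGC and 18.6% for ACAGTG. There AGTGTA was at 14.4% and ACACTG at 19.0%, so ACACTG was about as common over all optimal peaks as at members. At intronic summits nearer to a start but outside promoters, ACAGTG was at 23.6%, slightly above its share at members. The others were less common there than at members, with GTGCAC at 8.60%, CAGTGC at 16.8%, AGTGTA at 16.2% and ACACTG at 15.7%. At members in a 100 bp window the ratio of summit to flanks was 3.17 for the palindrome and 1.37 for the second. It was 1.64 for the third, 2.06 for the fourth and 1.43 for the last. Several overlap each other by 5 letters, so they are not separate findings. At summits of each replicate's own strongest regions the shares were 12.8% ± 0.362 for GTGCAC and 20.4% ± 2.03 for CAGTGC (SD, n = 3). They were chosen for this ratio, which is a description without a test.

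A related 6-mer, TCAGTG, had a direction. Its first 5 letters are those of the initiator of many fly core promoters, and it was picked after the leading 6-mers were seen. Between 25 and 125 bp from the summit it occurred 95 times facing away from the summit and 22 times facing it, that is 21.3 and 4.93 times per 100 members. In the 4 members printed above, CACTGA on the left and TCAGTG on the right are such a pair, and 8 members (1.79%) had one on both sides. The same was found at 2.68% of intergenic summits, 1.32% of intronic summits 501 to 5000 bp from a start and 0.136% of promoter peaks. At promoter peaks there were 7.71 outward and 4.64 inward matches per 100, at intronic summits 501 to 5000 bp from a start 14.6 and 4.06, and at intergenic summits 22.9 and 3.02. The arrangement was therefore not particular to deep introns. With each replicate's own summits members had 18.1 ± 0.114 outward and 4.97 ± 0.922 inward matches per 100 (SD, n = 3).

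The bases beside the outward matches were also alike. Read along the match, T stood 6, 5 and 4 bases before it in 83.2%, 84.2% and 81.1% of the 95 outward matches, against 36.4%, 31.8% and 36.4% of the 22 inward ones. The base directly after an outward match was C in 49.5% and T in 42.1%, and the next was A in 64.2%. At promoter peaks T stood at the same 3 positions in 51.8%, 54.0% and 43.4% of 226 outward matches. Members supported by all 3 replicates had 22.1 outward and 6.57 inward matches per 100, and members with less support had 19.7 and 1.91.

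**Figure D5:**
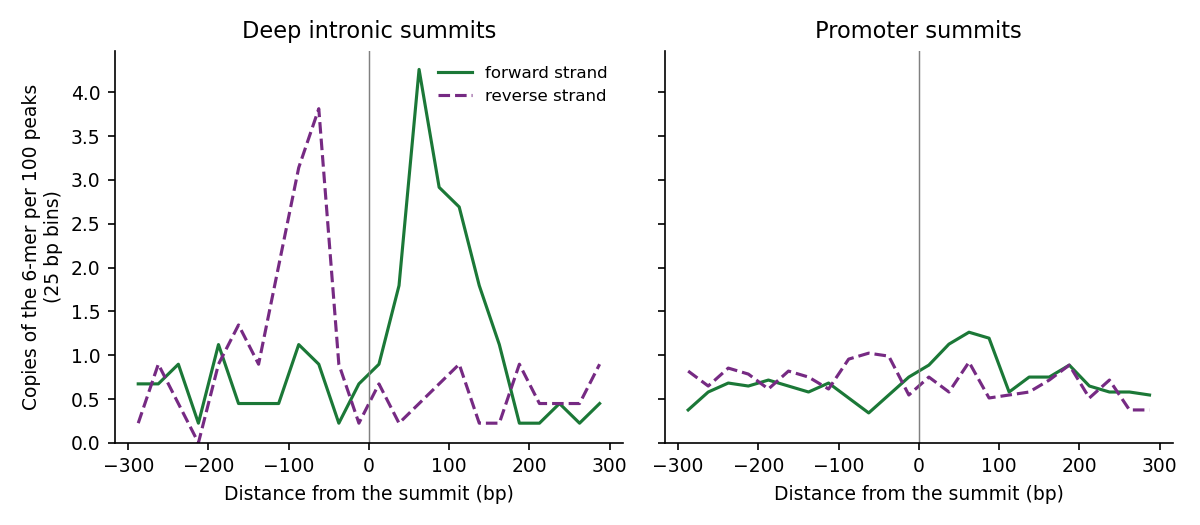
Copies of the 6-mer described above, beginning with the initiator letters, per 100 peaks in 25 bp bins around deep intronic (left) and promoter (right) summits, by strand (green, forward; purple dashed, reverse). At deep intronic summits the forward strand peaks at 4.26 per 100 between 50 and 75 bp right of the summit and the reverse strand at 3.81 between 75 and 50 bp left of it, while no promoter bin exceeds 1.26.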

How the data were processed

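Peak lists of CG12155-eGFP ChIP-seq on dm6 were used: relaxed lists for each of 3 replicates and for their pool, and the optimal list of reproducible peaks, as the notes deposited with the files describe them. The authors deposited a signal per region and the summit as an offset from the region's start, which was used to place summits. The chromatin was sonicated to 200 to 800 bp, per the labels. The aligner, caller, settings and signal scale were not given in the sources used here. The control experiment that the labels name was not analysed here, nor were the dm3 lists.

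Genes, exons and TSS positions came from Ensembl release 115 (BDGP6.54) and bases from the RefSeq copy of Release 6, whose arms equal dm6 in length. Other sequences than the arms 2L, 2R, 3L, 3R, X and chromosome 4 were left out. Each optimal peak was matched to the 5202 strongest regions of each replicate (overlap of 1 bp or more). The replicate was the unit of every test, an exact sign-flip permutation test. Peaks in promoters took precedence over introns in the other classes. Motif windows were 200 bp, with flanks centred 500 bp away.

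Members and gene lists were chosen with earlier results of these data known. Of the listed symbols, 4 matched no gene. The result of 1 further list is not reported here. Named genes were the hosts of the 15 strongest members, the 10 hosts with the most, the 3 summits on each side of the threshold, up to 3 hosts per list and members with no support. Other genes and TCAGTG were picked after values were seen. Scripts ran in Python 3.11.15 with numpy 2.4.6, pandas 2.3.3 and scipy 1.17.1, and were tested on simulated summits. Alternative settings changed distances, exons, starts, overlaps, peak numbers, windows and replicates.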

Additional observations from a re-analysis of the deposited data

How the results depend on the processing

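The 5000 bp threshold set the size of the class. At 2000 bp the deep intronic share was 16.2%, with 480 hosts and 191 with several members, and at 10000 bp it was 3.56%, with 114 and 43. With starts of any annotated gene the share was 7.52%. Within the strongest 50% of optimal peaks it was 6.54%, with 134 hosts, 27 with several members, and 98.8% support by all 3 replicates. With 2601 in place of 5202 strongest peaks per replicate the mean share was 6.56%, support 24.4% and its difference from promoter peaks -17.3 points, against -5.88, and with 10404 the share was 11.8%. Against the whole relaxed lists support was 100% and the difference from promoter peaks turned to 0.284 points, since nearly every peak overlaps those lists. The GC difference was -9.25 points with a 100 bp window and -4.68 with flanks 1000 bp away. Without 1 replicate the deep share of peaks supported by both others was 7.48 to 8.10%, the replicates' mean share 8.40 to 9.09%, support by the remaining 2 replicates 69.5 to 74.9%, the support difference -8.10 to -3.12 points, the median rank difference 580 to 717.5, hosts 213 to 221, hosts with several 69 to 77, the summit distance difference 0 to 1 bp and the promoter peak difference 16.1 to 18.0 points. Without replicate 2, 69 hosts had several members. In a 100 bp window the ratio of summit to flanks was 1.37 for CAGTGC, 1.43 for ACACTG, 1.64 for ACAGTG and 2.06 for AGTGTA, and for TCAGTG the outward to inward ratio was 3.25 in the strongest 50% of peaks, against 4.32, both chosen after the data were seen. Over all alternatives 67 values kept their size or direction, 34 moved, 2 differences came to 0 and 1 reversed. The optimal list was not remade without a replicate. The unknown depth limits every statement about weak regions, and p-values cannot go below 0.25 with 3 replicates.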
